A study of Mus musculus with 1 sample.

Results

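The genes of tubulin isotypes and microtubule-binding proteins were followed across the cells of the newborn mouse cortex: the alpha-tubulin gene Tuba1a, the beta-tubulin genes Tubb2a, Tubb2b, Tubb3 and Tubb5, and the genes of the binding proteins Dcx, Map2, Mapt, Map1b and Stmn2. These 10 genes were taken by symbol from the 51912 genes of the table, and all 10 passed the filter on low levels. The cells came from sc-RNA Seq of wild-type (WT) cerebral cortex from C57BL/6 mice at P0, the day of birth, with no transgene and no treatment. A single WT library of 11062 cells was used, and the SERPINA3 knock-in animals of the study were not analysed here. Each value therefore describes this library, no test between groups was possible, and the 95% intervals cover counting error only.

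Microtubules are hollow polymers of dimers of alpha- and beta-tubulin, and each of these is encoded by several genes whose products differ mostly near their C-terminal end. Young neurons need microtubules to pull the nucleus during migration and to extend an axon and dendrites, whereas dividing cells build the mitotic spindle from them. Binding proteins set how stable the polymer is: doublecortin (Dcx), MAP2, tau (Mapt) and MAP1B bind along it, and stathmin 2 (Stmn2) binds free tubulin dimers and favours disassembly. Faults in human TUBA1A, TUBB2B, TUBB3 and DCX cause malformations of the cortex, including lissencephaly.

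Cells were assigned to groups (gates) by the unique molecular identifiers (UMIs, 1 for each captured transcript) of marker genes, none of which is among the 10 genes. The gates held 322 radial glia or astrocytes, 91 dividing cells, 168 newborn excitatory neurons with Eomes, 1688 layer II/III neurons, 482 upper-layer neurons with intermediate Rorb, 302 layer IV neurons, 174 layer V neurons, 1009 layer VI neurons and 24 layer VIb neurons. Interneurons came as 139 cells with Lhx6 or Sst and 166 with Adarb2, Prox1 or Sp8. A gate of 39 vascular cells or microglia served as the group that should lack neuronal transcripts, and gates of 206 oligodendrocyte-lineage cells and 9 striatal-type neurons completed the 14 gates and 4819 cells. Of the markers that the gates did not use, Fabp7, a radial glial gene, stood at 16407 CPM (UMIs per 1000000) in the radial glia/astrocyte gate. Igfbpl1, a gene of young neurons, was highest in the newborn gate at 2712 CPM. Such markers are not given here for the layer and interneuron gates, whose names rest on the gating genes. A P0 radial glia/astrocyte gate cannot tell the progenitor from the young astrocyte. The newborn gate was set by Eomes and few UMIs of the dividing markers, so it can also hold intermediate progenitors that were not dividing. Median depth ran from 4602 UMIs per cell in the Adarb2/Prox1/Sp8 gate to 21020 in layer V.

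Counts of the 4 beta-tubulin genes rest on telling their transcripts apart by sequence in this 3′-end method, and no reads were examined here. The ends of their coding sequences are shown because 1 pair is nearly alike. They give the last 60 coding bases before the stop codon, read 5′ to 3′ on the coding strand of GRCm38 (GENCODE M21), with capitals for bases unlike Tubb2b in a pairwise alignment.
Tubb2b, chr13:34127474-34127533, minus strand: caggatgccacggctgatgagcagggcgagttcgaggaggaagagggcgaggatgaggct
Tubb2a, chr13:34074471-34074530, minus strand: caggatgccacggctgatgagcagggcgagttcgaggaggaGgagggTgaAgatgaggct
Tubb5, chr17:35834985-35835044, minus strand: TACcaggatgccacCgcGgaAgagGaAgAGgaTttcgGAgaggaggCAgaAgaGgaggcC
Tubb3, chr8:123421620-123421679, plus strand: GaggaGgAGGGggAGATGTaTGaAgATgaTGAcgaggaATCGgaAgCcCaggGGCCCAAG
Tubb2a differed from Tubb2b at 3 of these bases, Tubb5 at 18 and Tubb3 at 35. Over the whole coding sequence, Tubb2a and Tubb2b were 96.5% identical, and 47.4% of the 31-base words in the last 500 bases of the Tubb2a transcript also occur in Tubb2b, so the count of Tubb2a is uncertain. In the other direction 0 of the words at the end of Tubb2b occur in Tubb2a. The Tubb2b transcript has 723 bases after the stop codon, so its last 500 bases hold no coding sequence, whereas Tubb2a has 194. The count of Tuba1a is uncertain too: it was 98.3% identical to Tuba1b and shared 53.4% of such words with it. Tubb3 and Tubb5 shared 0 such words and were 81.2% identical.

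All 10 genes together took 0.677% of the UMIs in radial glia or astrocytes, 1.27% in dividing cells, 1.75% in newborn neurons, 3.19% in layer II/III neurons and 4.15% in layer V neurons. The vascular/microglia gate was lowest at 0.212%. The order of the genes' levels was not the same for all of them. Tuba1a, Tubb3, Tubb5, Mapt and Map1b were highest in layer V, Tubb2b in layer IV, Tubb2a and Stmn2 in layer VIb, Map2 in layer VI and Dcx in interneurons.

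**Figure D1:**
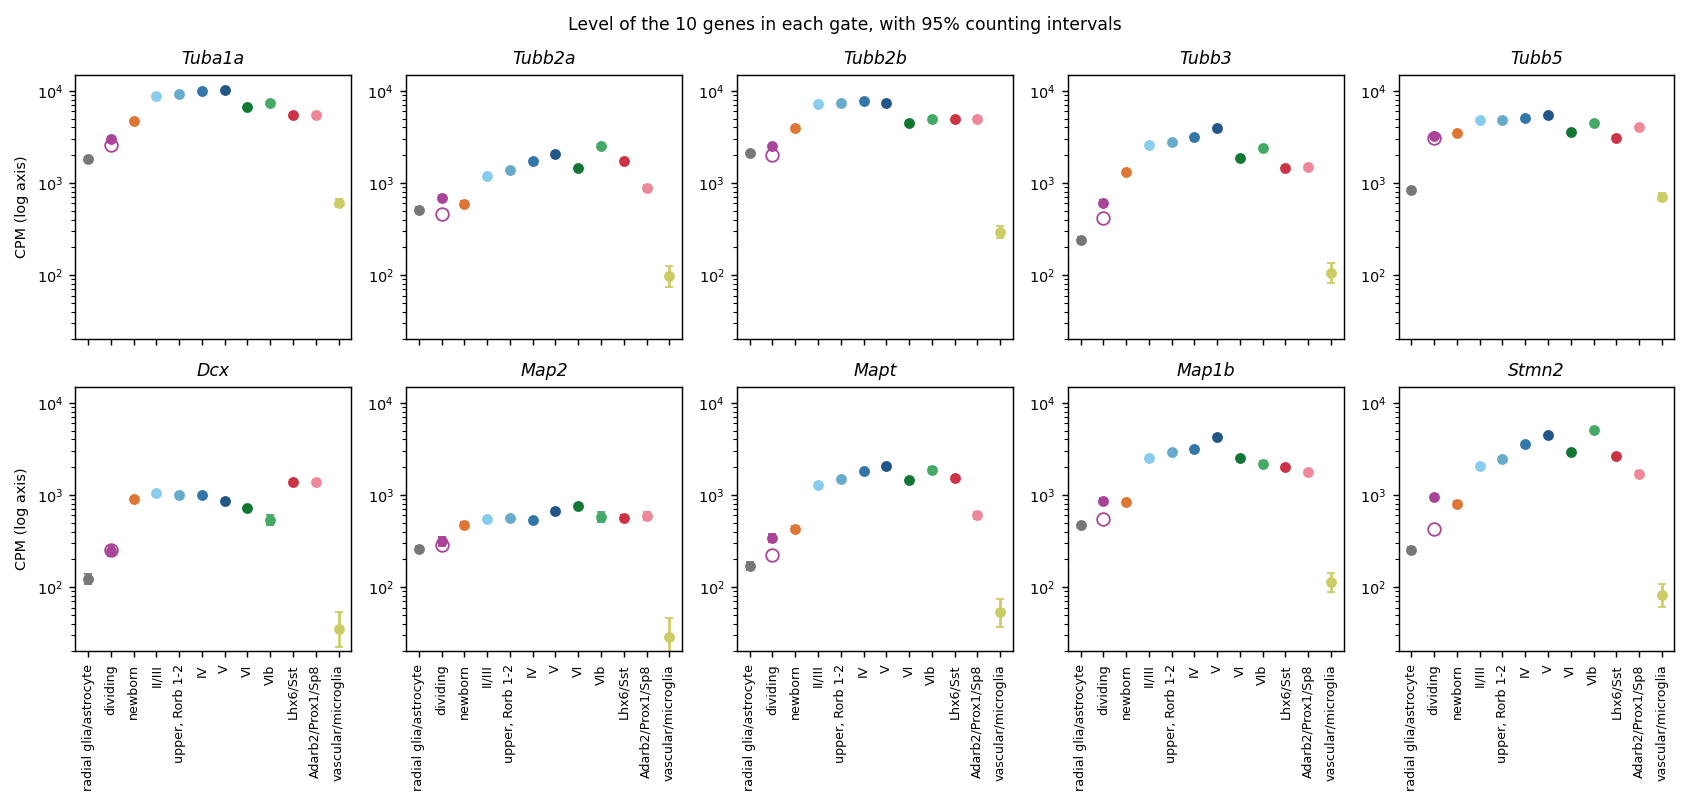
Level of each gene (CPM, log axis) in 12 gates; points are summed UMIs, bars are 95% counting intervals (mostly smaller than the point), the open circle is the dividing gate kept to its 76 cells with Ube2c, Cdk1 or Birc5, and Rorb 1-2 marks upper-layer neurons with intermediate Rorb. Tuba1a climbs from 1799 in radial glia or astrocytes to 10251 in layer V, whereas Dcx is highest in the interneuron gates at 1365 and 1382.

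Among the tubulins, Tuba1a, the main alpha-tubulin of young neurons, stood at 1799 CPM in radial glia or astrocytes, 2980 in dividing cells, 4738 in newborn neurons and 8695 in layer II/III. It reached 9899 in layer IV and 10251 in layer V, with 6621 in layer VI and 7441 in layer VIb. Both interneuron gates held nearly the same level, 5484 and 5480 (ratio 1.0, interval 0.962 to 1.04).

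Tubb2b, a beta-tubulin of neurons and of their progenitors, stood at 2104 in radial glia or astrocytes, 2499 in dividing cells and 3903 in newborn neurons. It stood at 7145 in layer II/III, 7703 in layer IV, 7382 in layer V, 4508 in layer VI and 4979 in layer VIb. The interneuron gates, at 4974 and 5000, could not be separated from layer VIb by counting error. Tubb2a, its close relative in sequence, stood at 514, 693 and 587 in radial glia or astrocytes, dividing cells and newborn neurons. It was 1174 in layer II/III, 1713 in layer IV, 2048 in layer V, 1468 in layer VI and 2493 in layer VIb. Its highest gate was thus layer VIb, where Tubb2b was below its level in the upper layers.

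Tubb3, the neuronal beta-tubulin used as an antibody marker of neurons, had the widest span of the 4 beta genes. It stood at 240 in radial glia or astrocytes, 606 in dividing cells, 1321 in newborn neurons, 2551 in layer II/III and 3181 in layer IV. Layer V held 3939, layer VI only 1851, layer VIb 2368, and the interneuron gates 1456 and 1485. Tubb5, which most cell types express, separated radial glia or astrocytes at 838 from dividing cells at 3193. It was 3514 in newborn neurons, 4831 in layer II/III, 5012 in layer IV, 5508 in layer V, 3612 in layer VI, 3091 in Lhx6/Sst and 4060 in Adarb2/Prox1/Sp8 interneurons.

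Dcx, which stabilises the microtubules of migrating neurons, stood at 123 in radial glia or astrocytes, 247 in dividing cells and 907 in newborn neurons. The layers ran downward with depth in the cortex, from 1044 in II/III through 999 in IV, 854 in V and 721 in VI to 533 in VIb. Both interneuron gates were above every layer. Map2, a protein of dendrites and cell bodies, spanned the least of the binding proteins, with 260 in radial glia or astrocytes, 475 in newborn neurons, 546 in layer II/III and 753 in layer VI.

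Mapt, Map1b and Stmn2, which are all concentrated in growing axons, changed most among neurons. Mapt was 428 in newborn neurons, 1284 in layer II/III, 1836 in layer IV, 2046 in layer V and 1436 in layer VI. Map1b was 830, 2534, 3171, 4258 and 2497 in the same gates. Stmn2 was 801, 2066, 3564, 4512 and 2946, with 5043 in layer VIb. The interneuron gates were split for Mapt, with 1520 in Lhx6/Sst and 603 in Adarb2/Prox1/Sp8 cells.

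**Figure D2:**
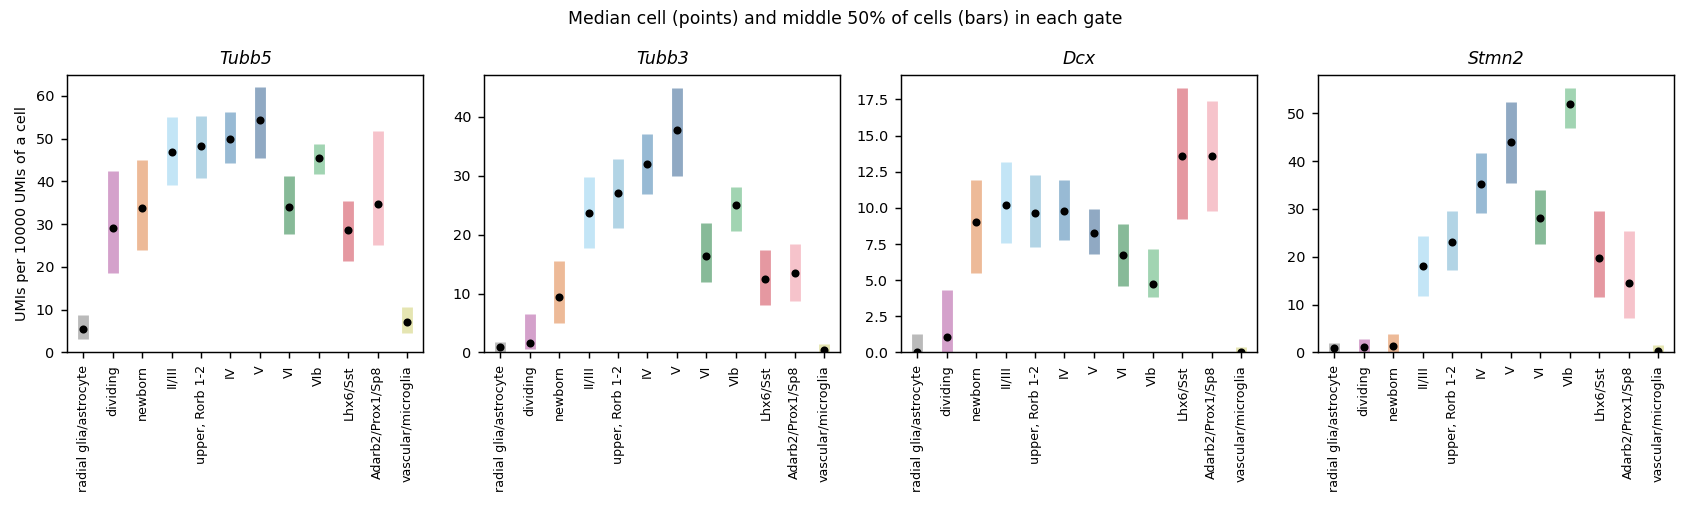
UMIs per 10000 UMIs of a cell for 4 genes in 12 gates; points are the median cell and bars span the middle 50% of cells. The median of Tubb5 is 29.1 in dividing cells against 5.46 in radial glia or astrocytes, whereas the median of Stmn2 stays at 1.46 or less in all 3 of the earliest gates.

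Sums over a gate can rest on few cells, and in the dividing gate they did. Of its 91 cells, the 15 richest in Stmn2 held 92.1% of the Stmn2 UMIs, against 37.9% for the 15 richest in Tubb5. The median dividing cell had 1.09 Stmn2 UMIs per 10000, close to the 1.01 of radial glia or astrocytes. Among the dividing cells, 15 had no UMI of Ube2c, Cdk1 or Birc5, cell cycle genes that the gate did not use. In those 15 cells Stmn2 stood at 3478 CPM, Fabp7 at 284 and Sox2 at 32.1, whereas the other 76 held 431, 4313 and 387. The dividing values are therefore also given for the 76 cells, a choice made after the values were seen. In newborn neurons the 15 richest of 168 cells held 75.8% of Stmn2 and 66.5% of Map1b UMIs, but 23.5% of those of Dcx.

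Transcripts freed from broken cells enter every droplet, so low neuronal levels in glial gates were read against the vascular/microglia gate, which should lack most of these genes. In that gate (median depth 10686 UMIs) Stmn2 stood at 2.94% of its level in the pooled layer neurons (median 9531), Map1b at 4.0%, Tubb3 at 4.07% and Tubb2b at 4.5%. Tubb5 at 15.2%, Tuba1a at 7.15% and Tubb2a at 6.69% were higher. Radial glia or astrocytes with no UMI of Neurod2 or Neurod6 (190 cells) held Tubb3 at 125 CPM (107 to 146) and Stmn2 at 118 CPM (100 to 138). The vascular/microglia gate held 106 CPM (82.1 to 135) and 82.1 CPM (61.1 to 108), so the intervals overlapped for both genes. Overlap does not show equal levels, no ratio between the groups was taken, and the 190 cells were shallower (median 7058 UMIs). The vascular/microglia gate could also hold Neurod2 or Neurod6 UMIs, which the 190 cells could not. The Tubb3 and Stmn2 levels in these 190 cells are not read as expression. Map1b, at 323 CPM (293 to 354) against 113 CPM (87.8 to 142), was above that background. Layer neurons exceeded the same 190 cells 2.77-fold for Map2, 3.29-fold for Tubb2a, 3.56-fold for Tubb2b and 5.86-fold for Tuba1a, with 8.73-fold for Map1b and 13.1-fold for Dcx.

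After cells were thinned to 2000 UMIs each, Dcx was detected in 16.5% of radial glia or astrocytes, 81.0% of newborn neurons and 87.2% of layer II/III neurons, against 2.56% of vascular cells or microglia. Before thinning these shares were 37.3%, 98.2%, 99.8% and 30.8%. Stmn2 was detected in 23.3%, 40.5% and 92.3% after thinning, against 17.9% of vascular cells or microglia. Before thinning the shares of Stmn2 were 51.9%, 63.1% and 98.6%, against 53.8% of vascular cells or microglia.

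The first comparison set the newborn gate against progenitors, taken as the radial glia/astrocyte and dividing gates together (413 cells). A gene counted as past the limit when its level, with 5 CPM added on both sides, differed at least 1.5-fold. In newborn neurons 8 of the 10 genes were past the limit upward and 0 downward, whereas of all 9267 genes tested 18.1% were higher and 14.0% lower. The median ratio of the 10 genes was 1.83, against 1.08 for all genes. Scaling by the median of ratios moved all genes by 0.19 on the log2 scale, and the background split was then 12.4% higher and 18.2% lower. Of the 10 genes 7 were then past the limit upward, with Map2 no longer past the limit.

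Dcx had the highest ratio, 5.65-fold (interval 5.12 to 6.25), followed by Tubb3 at 3.75-fold (3.49 to 4.03). Tubb5 was 2.25-fold and Tuba1a 2.19-fold higher, Mapt 1.93, Tubb2b 1.75, Stmn2 1.73 and Map2 1.72. Tubb2a, at 1.03-fold (0.951 to 1.12), did not differ beyond counting error, and Map1b was 1.41-fold higher, under the limit. Against progenitors kept to the 190 and the 76 cells above, the ratios were 6.36 for Dcx, 5.48 for Tubb3, 3.28 for Stmn2, 2.96 for Mapt, 2.0 for Map1b and 1.32 for Tubb2a, so that 9 genes were past the limit, where 20.2% of all genes were higher and 14.2% lower. The Tubb3 and Stmn2 levels of those 190 cells overlapped the background. The 190 cells were kept for having no Neurod2 or Neurod6 UMI. The radial glia or astrocytes left out held Tubb3 at 377 CPM and Stmn2 at 410, against 125 and 118 in those kept. Newborn neurons got no like selection, so the rise of these ratios was set in part by the choice of cells. The Map1b difference did not show in the median cell, at 1.83 UMIs per 10000 in newborn neurons against 2.46 in radial glia or astrocytes, nor in its detection after thinning, at 41.1% and 42.2%. Over all progenitors, Map1b went down to 1.02-fold with cells thinned. The 15 richest of the 168 newborn neurons held 66.5% of the Map1b and 65.3% of the Mapt UMIs.

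Within the progenitors, dividing cells exceeded radial glia or astrocytes past the limit for 7 of the 10 genes, where 16.1% of all genes were higher and 12.6% lower. Tubb5 led at 3.81-fold (3.61 to 4.02), before Stmn2 at 3.76, Tubb3 at 2.52, Mapt at 2.03, Dcx at 2.01, Map1b at 1.83 and Tuba1a at 1.66. Tubb2a (1.35), Map2 (1.2) and Tubb2b (1.19) were under the limit. The 61 dividing cells with no UMI of Eomes held Dcx at 156 CPM, 1.27-fold over radial glia or astrocytes (1.02 to 1.58) and under the limit, against 436 CPM in the 30 with one. Kept to the 76 cells, the count fell to 4, where 14.3% of all genes were higher and 14.1% lower: Tubb5 was 3.68-fold, Dcx 2.04-fold, Stmn2 1.72-fold and Tubb3 1.71-fold higher, whereas Tuba1a (1.44), Mapt (1.31), Map1b (1.17) and Map2 (1.11) were under the limit and Tubb2b (0.954) and Tubb2a (0.889) were not higher. Among these 76 cells the 15 richest still held 90.7% of the Stmn2 and 80.7% of the Tubb3 UMIs, and the median cell had 0.801 Stmn2 UMIs per 10000, below the 1.01 of radial glia or astrocytes. Among genes outside the 10, Tuba1b was 6.48-fold and Tubb4b 5.83-fold higher in those 76 cells. Between these dividing cells and newborn neurons Tubb5 differed little, 1.14-fold (1.09 to 1.19), while Dcx was 3.63-fold and Tubb3 3.21-fold higher in newborn neurons. Dividing cells were thus near newborn neurons in Tubb5, but not in Dcx and Tubb3. No lineage was followed from one gate to the other. In the oligodendrocyte lineage Tubb5 was 2.09-fold and Map2 1.91-fold above radial glia or astrocytes, and Map2, at 498 CPM, was near its level in newborn neurons. Its 46 cells with at least 4 UMIs of the dividing markers exceeded its 120 cells with 0 of them 5.12-fold for Tuba1b, 5.06-fold for Tubb4b and 1.71-fold for Tubb5.

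From newborn to layer neurons (3679 cells) the order of the genes was different. Of the 10 genes 7 were past the limit upward and 0 downward, where 15.3% of all genes were higher and 13.6% lower. Mapt was 3.5-fold (3.23 to 3.8), Stmn2 3.49-fold and Map1b 3.39-fold higher, followed by Tubb2a at 2.46-fold, Tubb3 at 1.98, Tuba1a at 1.8 and Tubb2b at 1.68. Dcx, which led the first comparison, was level over the pooled layer neurons at 1.02-fold (0.964 to 1.08), and Tubb5 and Map2 were 1.31-fold and 1.29-fold higher. For Dcx the pool covers layers on both sides of the 907 CPM of newborn neurons, from 1044 in layer II/III to 721 in layer VI and 533 in layer VIb. When each cell was weighted equally, or thinned, the values of Mapt, Map1b and Stmn2 reached up to 5.15, 5.75 and 5.6.

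Taken across both steps, layer neurons were past the limit over progenitors for all 10 genes, where 23.8% of all genes were higher and 19.1% lower (19.1% and 24.2% after scaling by the median of ratios). The ratios ran from 2.22 for Map2 to 7.41 for Tubb3, with 6.75 for Mapt, 6.03 for Stmn2, 5.76 for Dcx and 4.77 for Map1b. Tuba1a was 3.94-fold, Tubb5 2.96-fold, Tubb2b 2.94-fold and Tubb2a 2.54-fold higher. These values depend on the progenitor cells taken: over the restricted progenitors (the 190 and the 76 cells) Stmn2 was at 11.4, above Tubb3 at 10.8 and Mapt at 10.4, and the Stmn2 and Tubb3 levels of the 190 cells overlapped the background. All 10 genes were past the limit there too, where 24.9% of all genes were higher and 19.7% lower. The higher ratios there were again set in part by keeping radial glia or astrocytes without Neurod2 or Neurod6 UMIs.

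**Figure D3:**
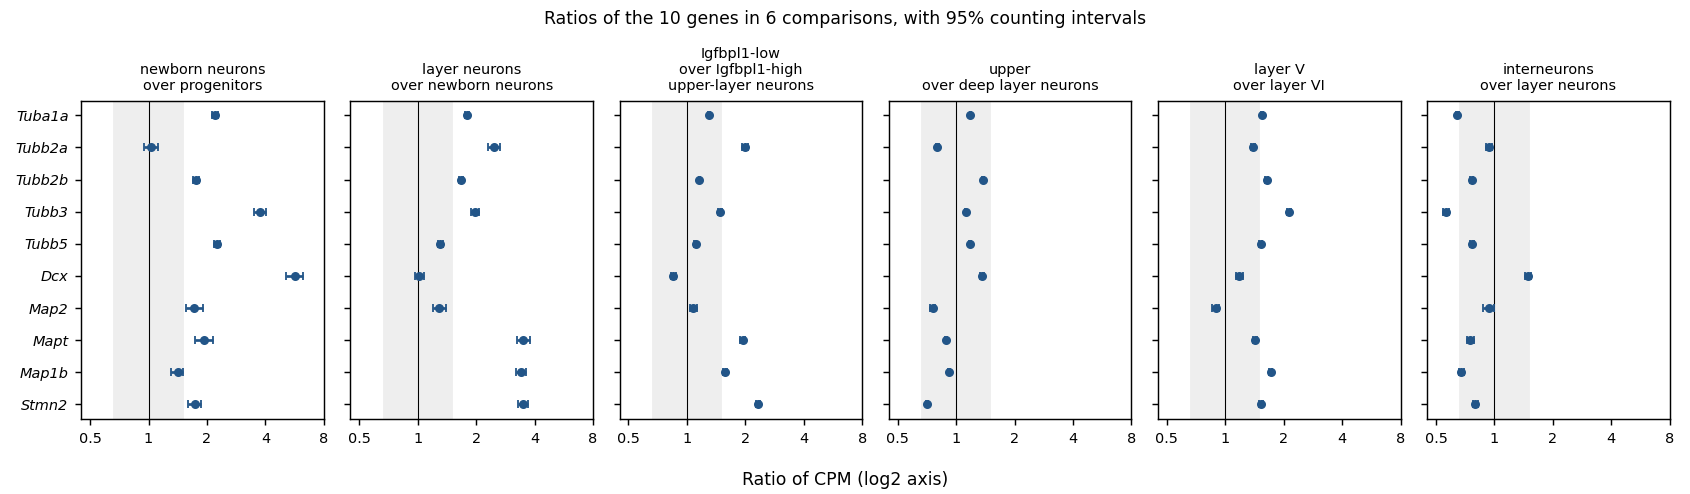
Ratio of CPM (log2 axis) for the 10 genes in 6 comparisons; points are ratios of summed UMIs, bars are 95% counting intervals, and the grey band marks less than a 1.5-fold difference. Dcx is at 5.65 over progenitors but at 1.02 from newborn to layer neurons, whereas Stmn2 is at 1.73 and then 3.49.

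The layers were then compared. Between upper (2472 cells) and deep (1207 cells) layer neurons 0 of the 10 genes were past the limit, where 6.56% of all genes were higher and 7.46% lower. Tubb2b was 1.37-fold, Dcx 1.36-fold, Tuba1a and Tubb5 1.18-fold each and Tubb3 1.12-fold higher in upper layers, and Stmn2 (0.708), Map2 (0.756), Tubb2a (0.798), Mapt (0.889) and Map1b (0.922) were lower. At a matched depth of 10000 to 20000 UMIs per cell (862 and 435 cells) Tubb2b was 1.53-fold and Tubb3 1.4-fold higher in upper layers, while Stmn2 was at 0.894 and Tubb2a at 0.964. Mapt and Map1b turned in direction there, to 1.07 (1.04 to 1.09) and 1.08 (1.06 to 1.11). Tubb2b was then the 1 gene past the limit, where 6.01% of all genes were higher and 7.42% lower. Leaving out cells over 20000 UMIs likewise put Tubb2b past the limit upward.

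The deep layers were unlike each other. In layer V 6 of the 10 genes were past the limit over layer VI and 0 under it, where 4.25% of all genes were higher and 10.9% lower. Tubb3 was 2.13-fold higher (2.08 to 2.17), Map1b 1.71, Tubb2b 1.64, Tuba1a 1.55, Stmn2 1.53 and Tubb5 1.52. Mapt (1.42), Tubb2a (1.39) and Dcx (1.18) were under the limit. Map2 was the exception in direction, at 0.892. Depth moved with this result: the layer V cells had a median of 21020 UMIs and those of layer VI 9568. At 10000 to 20000 UMIs per cell (58 and 364 cells, with medians that still differed at 16839 and 11500) only Tubb3 stayed past 1.5-fold, at 1.84 (1.76 to 1.91), with Tubb2b at 1.47, Tuba1a at 1.44, Map1b at 1.36 and Stmn2 at 1.29, where 4.67% of all genes were higher and 12.5% lower. The 24 layer VIb neurons exceeded layer VI for Stmn2 (1.71-fold) and Tubb2a (1.7-fold) and were lower for Dcx (0.739) and Map2 (0.759). Their median depth was 18082 UMIs. At 10000 to 20000 UMIs per cell (13 layer VIb cells, with medians of 17504 and 11500), Stmn2 was at 1.73 (1.63 to 1.84), Tubb2a at 1.69 (1.54 to 1.84), Dcx at 0.663 and Map2 at 0.745.

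Within the upper layers, layer IV exceeded layer II/III for Stmn2 (1.73-fold), Tubb2a (1.46-fold) and Mapt (1.43-fold), while Tubb5, Map2 and Dcx lay between 0.957-fold and 1.04-fold. Median depth was 13686 UMIs in layer IV and 8254 in layer II/III, and the part of depth was not tested. To ask how the genes ran with the age of a neuron, upper-layer neurons were ranked by the share of Igfbpl1 in their UMIs and split in 3 groups of 824 cells. From the high to the low Igfbpl1 group, 4 of the 10 genes were past the limit upward and 0 downward, where 8.59% of all genes were higher and 7.17% lower. These were Stmn2 (2.33-fold, 2.27 to 2.38), Tubb2a (1.99), Mapt (1.94) and Map1b (1.58). Tubb3, at 1.48-fold, lay just under the limit, Tuba1a was 1.3-fold, Tubb2b 1.16-fold, Tubb5 was 1.11-fold and Map2 1.08-fold higher, and Dcx ran the other way at 0.849-fold (0.824 to 0.876).

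The groups also differed in depth, with medians of 7026, 9311 and 11507 UMIs from high to low Igfbpl1, and the part of depth in this result was not tested beyond the alternatives. With cells thinned to 2000 UMIs and with the other alternatives, Stmn2 ran from 2.11 to 2.38, Tubb2a from 1.84 to 2.12, Mapt from 1.75 to 2.02 and Map1b from 1.45 to 1.68. Within layer II/III alone the ratios were 2.16 for Stmn2, 1.94 for Mapt, 1.86 for Tubb2a and 1.62 for Map1b. Within layer IV and layer VI they were smaller, 1.24 in each for Stmn2, and 1.17 and 1.23 for Tubb2a. Map1b was at 1.03 in each. The groups were cut within each layer and were not matched in Igfbpl1 between layers. From high to low Igfbpl1, median depth went from 6743 to 10296 UMIs in layer II/III and from 15618 to 13210 in layer IV. In layer VI it went from 9400 to 9839, and whether the layers differ in the ratios could not be tested. In Adarb2/Prox1/Sp8 interneurons the direction was the opposite for Stmn2, from 1967 CPM in Igfbpl1-high to 1552 in Igfbpl1-low cells (0.789, interval 0.693 to 0.898), and Tubb3 went from 1797 to 1144 (0.637). The median cell of these groups changed little in Stmn2, from 14.8 to 14.0 UMIs per 10000. In the same gate Mapt (1.58) and Tubb2a (1.24) were higher in Igfbpl1-low cells, and in Lhx6/Sst interneurons Stmn2 was at 1.13 (1.03 to 1.25).

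**Figure D4:**
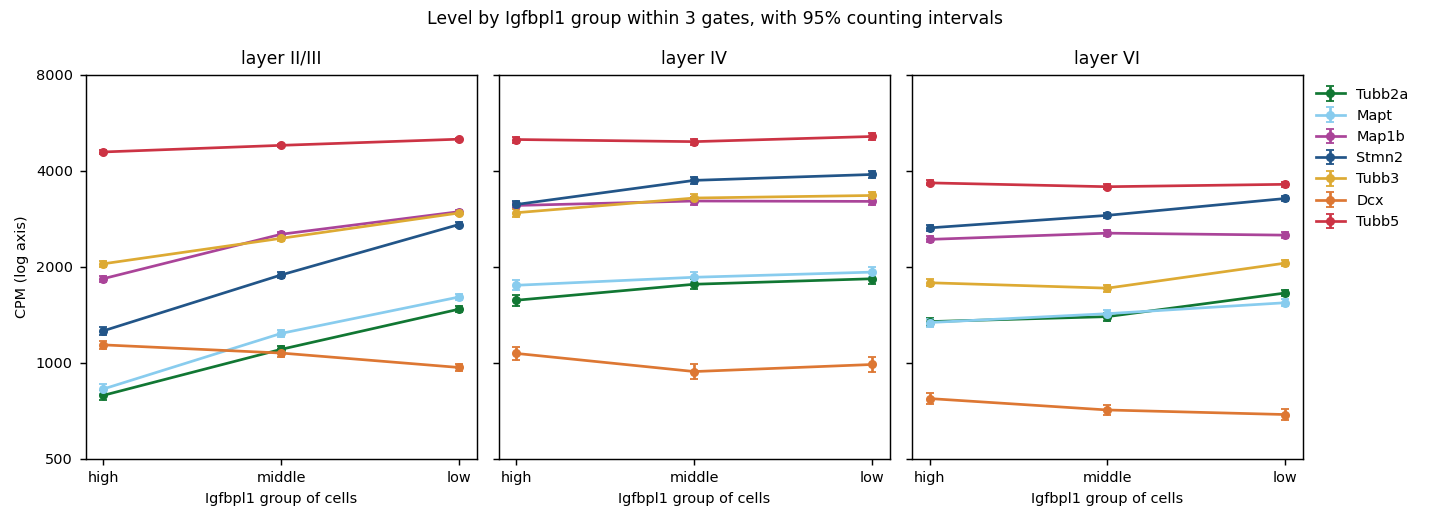
Level of 7 genes (CPM, log axis) in cells with high, middle and low Igfbpl1 within layer II/III, layer IV and layer VI; bars are 95% counting intervals. In layer II/III Stmn2 goes from 1257 to 2709 and Dcx from 1136 to 965, and the lines are flatter in the other layers. The groups were cut within each layer and were not matched in Igfbpl1 between layers.

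Interneurons (305 cells) were compared with layer neurons. Of the 10 genes, 2 were past the limit downward and 0 upward, where 6.86% of all genes were higher and 9.51% lower. Tubb3 was at 0.563 (0.542 to 0.584) and Tuba1a at 0.644 (0.632 to 0.657). Map1b (0.676), Mapt (0.75), Tubb2b and Tubb5 (0.762 each) and Stmn2 (0.796) were lower within the limit. Dcx lay on the other side at 1.48-fold (1.43 to 1.54), under the limit, and Tubb2a (0.936) and Map2 (0.933) were nearly level. Between the interneuron gates 3 genes were past the limit, all higher in Lhx6/Sst cells, where 15.9% of all genes were higher and 16.8% lower: Mapt 2.52-fold (2.28 to 2.79), Tubb2a 1.96-fold and Stmn2 1.53-fold. Within the limit, Tubb5 was lower in Lhx6/Sst cells at 0.761 (0.725 to 0.799) and Map1b higher at 1.12 (1.05 to 1.2). Tuba1a, Tubb2b, Tubb3, Dcx and Map2 had intervals that held 1. Igfbpl1 moved with this split, at 130 CPM in Lhx6/Sst and 1170 in Adarb2/Prox1/Sp8 cells. With each gate split by Igfbpl1, the Igfbpl1-low Adarb2/Prox1/Sp8 cells held Mapt at 754, Tubb2a at 978 and Stmn2 at 1552 CPM, below the 1438, 1616 and 2315 of the Igfbpl1-high Lhx6/Sst cells. These groups were cut within each gate and were not matched in Igfbpl1 between the gates. The part of Igfbpl1 in the difference between the gates was therefore not tested. Against newborn excitatory neurons, Adarb2/Prox1/Sp8 cells were higher in Map1b (2.15-fold), Stmn2 (2.13-fold) and Dcx (1.52-fold).

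Since a dimer needs 1 alpha- and 1 beta-tubulin, the isotypes were also read as shares of their family. Of the beta-tubulin UMIs of radial glia or astrocytes, Tubb2b held 55.1% (54.1 to 56.1), Tubb5 21.9%, Tubb2a 13.4% and Tubb3 6.29%. In dividing cells Tubb5 was first at 41.8% (40.8 to 42.9; 46.8% in the 76 cells), Tubb2b held 32.7%, and Tubb4b held 7.57% against 2.55% in radial glia or astrocytes. In newborn neurons Tubb2b held 40.9%, Tubb5 36.8%, Tubb3 13.8% and Tubb2a 6.15%.

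Among layer neurons Tubb2b ran from 44.5% in layer II/III to 38.1% in layer V and 33.6% in layer VIb, and Tubb5 stayed between 27.8% and 30.6% in every layer gate. Tubb3 held 15.9% in layer II/III, 20.3% in layer V and 15.7% in layer VI. Tubb2a held 7.32%, 10.6% and 12.4% in the same layers and 16.8% in layer VIb. Among the 14 gates the Tubb2a to Tubb2b ratio was lowest in newborn neurons at 0.150 (0.140 to 0.162) and was 0.164 in layer II/III, 0.277 in layer V, 0.326 in layer VI and 0.501 in layer VIb. It was 0.344 in Lhx6/Sst and 0.175 in Adarb2/Prox1/Sp8 interneurons. Tubb2a reads that Tubb2b shares could move these ratios.

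Over whole groups, Tubb5 held 31.2% of beta-tubulin UMIs in progenitors and 29.6% in layer neurons, Tubb3 7.06% and 16.8%, and Tubb2a 11.4% and 9.26%. Tuba1a held 93.6% of alpha-tubulin UMIs in radial glia or astrocytes, 79.7% in dividing cells, 97.3% in newborn neurons and 98.0% in layer neurons, with most of the rest from Tuba1b (18.6% in dividing cells). The end of Tuba1b shared 54.5% of its 31-base words with Tuba1a, so shared reads could move these shares and the ratios of Tuba1b. The alpha to beta ratio of UMIs stayed between 0.485 and 0.605 in all 14 gates.

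**Figure D5:**
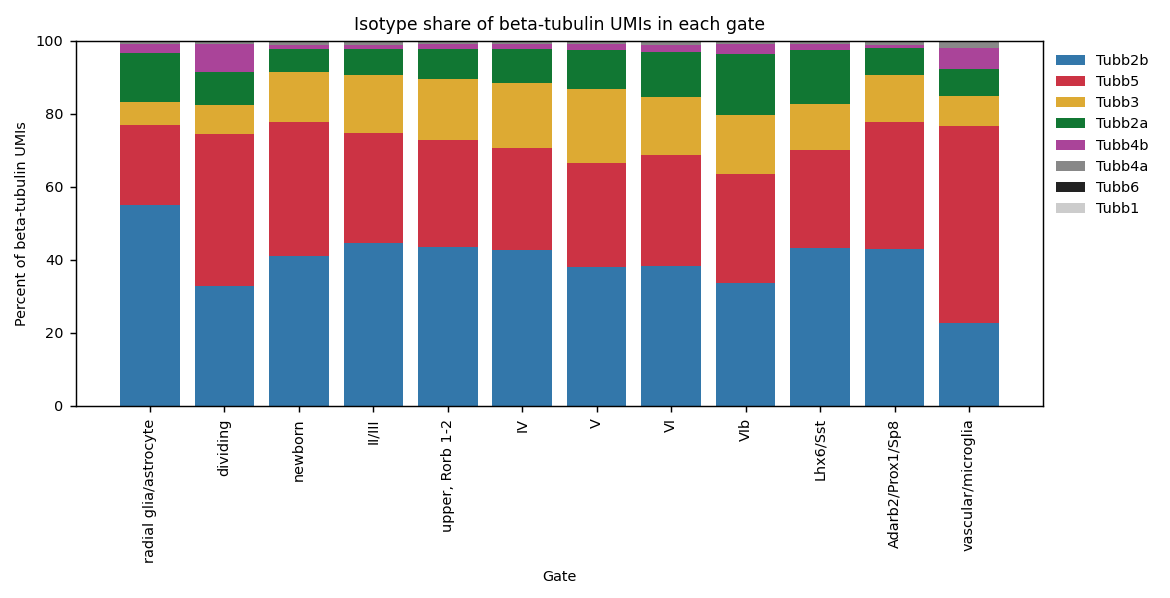
Share of beta-tubulin UMIs (percent) held by each of the 8 beta-tubulin genes in 12 gates; stacked bars add up to 100. Tubb5 is the largest part in dividing cells at 41.8% and Tubb2b in the radial glia/astrocyte gate at 55.1%, and the Tubb3 part is widest in layer V at 20.3%.

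Of 92 other genes of microtubules in 13 lists, 67 passed the filter on low levels. In layer neurons over progenitors 35 of these were past the limit upward and 8 downward, where 23.8% of all genes were higher and 19.1% lower, with a median ratio of 1.57. The counts of the single lists that follow stand against the same shares. The stathmins, which bind tubulin dimers as Stmn2 does, were higher in 3 of 3, led by Stmn4 (8.97-fold) before Stmn3 (3.96-fold) and Stmn1 (3.07-fold). Enzymes that modify tubulin were higher in 8 of 10 and lower in 0, with Agtpbp1, which trims glutamate from tubulin tails, at 4.89-fold, and Vash2, which removes its terminal tyrosine, at 3.63-fold.

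Transport kinesins were higher in 6 of 9 and lower in 1, with Kif21b at 4.05-fold, Kif5a at 3.81-fold and Kif21a at 0.558. Plus-end and minus-end proteins were higher in 6 of 11 and lower in 1, with Camsap3, which caps minus ends, at 5.4-fold and Ckap5, a microtubule polymerase, at 0.565. Ckap5 was past the limit upward in dividing cells over radial glia or astrocytes, so its ratio also depends on the dividing cells among the progenitors. Structural microtubule-associated proteins were higher in 4 of 9, among them Mtus2 at 4.44-fold and Map6 and Map9 at 3.53-fold each. The LIS1 and dynein list was higher in 2 of 5, led by the dynein intermediate chain gene Dync1i1 at 6.58-fold, while Pafah1b1, which encodes LIS1, was 1.41-fold higher.

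The tubulin folding cofactors were higher in 3 of 5, with Tbcd at 1.78-fold, Tbce at 1.69-fold and Tbcb at 1.52-fold. Of the 10 listed mitotic kinesins and spindle proteins 3 passed the filter (Prc1, Tpx2 and Numa1), and all 3 were lower. The progenitors hold cells chosen by other genes of division, so this direction was set by the gate and nothing is read from it. The other alpha-tubulins were split (Tuba4a at 5.11-fold from 7 UMIs in progenitors, interval 2.46 to 12.8, and Tuba1b at 0.552), as were the gamma, delta and epsilon tubulins (Tubg2 at 5.69-fold and Tubg1 at 0.609). Of the other beta-tubulins Tubb4a was 4.83-fold higher and Tubb4b, at 0.873, was not past the limit. The ratios of Tuba1b, Tubg1 and Tubb4b rest on the dividing cells among the progenitors. In radial glia or astrocytes, dividing cells and layer neurons Tuba1b stood at 118, 696 and 163 CPM. Tubb4b stood at 97.5, 578 and 213 CPM and Tubg1 at 23.1, 73.2 and 23.4 CPM. None was thus lower in layer neurons than in radial glia or astrocytes. The severing enzymes had 1 of 4 lower, Katna1 at 0.554, and the doublecortin family 0 of 2 in either direction, with Dclk1 at 0.775.

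At the first step, newborn neurons over progenitors, 23 of the 67 genes were higher and 6 lower, where the shares over all genes were 18.1% and 14.0%. The lower genes included Tpx2 and Prc1, whose direction was set by the gates. They also included Tuba1b, Tubb4b and Ckap5, which were past the limit upward in dividing cells over radial glia or astrocytes. Kif21b led the kinesins at 6.12-fold and, like Dcx, did not go on upward in the pooled layer neurons: it was at 0.662 from newborn to layer neurons. Dclk1, a relative of Dcx, was lower in newborn neurons (0.505) and then 1.53-fold higher in layer neurons. From newborn to layer neurons 20 genes were higher and 5 lower (15.3% and 13.6% of all genes), with Dync1i1 at 4.93-fold, Stmn4 at 3.6-fold and Agtpbp1 at 2.64-fold.

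Between upper and deep layers 1 of the 67 was higher (Ttll7, 1.6-fold) and 7 lower (6.56% and 7.46% of all genes), with Dync1i1 at 0.388 and Map1a at 0.452. In interneurons over layer neurons 6 were higher and 10 lower (6.86% and 9.51% of all genes), with Dclk2 at 2.11-fold and Mtus2 at 2.06-fold, and Dync1i1 at 0.0978. With falling Igfbpl1 9 were higher and 4 lower (8.59% and 7.17% of all genes), led by Dync1i1 at 3.22-fold, Mtus2 at 2.56-fold and Agtpbp1 at 2.38-fold.

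The genes whose levels over the 14 gates were most like those of each gene were found among 3771 genes by Pearson's r of log2 levels, with the 10 genes themselves left out; the gates share 1 library, and no test was made. Within the 10 genes, Tuba1a and Tubb3 had r = 0.983. Tuba1a was most like Dpysl3 (r = 0.991), Crmp1 and Kif3c, and Tubb3 most like Dpysl5 (0.988) and Crmp1. Dpysl3, Dpysl5 and Crmp1 encode collapsin response mediator proteins, which bind tubulin in growing axons. Tubb5 was most like Stmn1 (0.978), and Tubb2a most like Ube2v2 (0.990). Tubb2b was most like Serf1 (0.978) and Kif3c, Dcx most like Celf3 (0.980), an RNA-binding protein of neurons, and Map2 most like Rundc3a (0.968). Both Stmn2 (0.988) and Mapt (0.985) were most like Mllt11, and Map1b was most like Ccl27a (0.980) before Dpysl2 (0.975).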

How the data were processed

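P0 WT cortex was, per the labels, dissociated and run on the 10x Chromium 3′ platform. The submitters' processing notes name STAR, Cell Ranger, Seurat and the build mm9; the settings of alignment and counting are not given in the sources used here, and the clusters that the study made with Seurat were not used. The authors deposited raw UMI counts per gene and cell (90346034 UMIs, median 7196.5 per cell), with no normalization. The totals and gene numbers of the deposited cell table equalled the sums of the counts in all 11062 cells.

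Here, cells with at least 2000 UMIs outside mitochondrial genes and 200 genes were gated by panels of marker UMIs; 2616 cells were under these minimums, 867 passed no gate, and 2637 excitatory and 65 inhibitory cells were left unresolved. No doublet caller was run: 58 cells that passed 2 gates were left out, and leaving out cells over 20000 UMIs was an alternative. A dividing cell needed 4 UMIs of Top2a, Mki67, Cenpf or Hist1h1b, a radial glia/astrocyte cell 4 of Aldoc, Sox9, Hopx, Mfge8 or Ednrb, and a newborn neuron 2 of Eomes. Excitatory neurons needed 4 of Neurod2 or Neurod6 and were split by Cux1 and Cux2 (upper; layer IV with at least 3 and layer II/III with 0 UMIs of Rorb), Bcl11b (V), Foxp2 and Tle4 (VI) and Ctgf, Cplx3 and Nxph4 (VIb). UMIs were summed per gate and given as CPM without mitochondrial genes; the background covers genes of at least 10 CPM in the library. Intervals are exact (Poisson for levels, conditional binomial for ratios, Clopper-Pearson for shares). All 10 genes are named in each comparison of all cells of the gates for which a count past the limit is given. Other comparisons name only some of the genes. Of the 13 lists, genes among those with the largest ratios are named, besides Pafah1b1. The members, lists, gates and tests were chosen with earlier results of these data known. The call rule was tested on simulated data. Software was Python 3.11.15 with numpy 2.4.6, scipy 1.17.1, pandas 2.3.3 and matplotlib 3.10.9. Sequences are from GENCODE M21 (GRCm38), since the counts carry symbols only.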

Additional observations from a re-analysis of the deposited data

How the results depend on the processing

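With 1 library, no replicate could be left out. No paired analysis was possible because a single sample was analysed and no result comes from a test. Alternatives were a minimum of 1000 or 5000 UMIs per cell, stricter gates, no cells over 20000 UMIs, equal weight for each cell, thinning to 2000 UMIs, mitochondrial genes in the denominator, median-of-ratios scaling and no filter on low levels; those on the progenitor gates were chosen after the data were seen. Of 520 ratios of single genes 316 moved by less than the counting interval, 204 moved by more, and 0 changed direction past the limit. Ratios under the limit were not counted for direction, and some crossed 1. Tubb2a ran from 0.906 to 1.18 in newborn neurons over progenitors and reached 1.01 in interneurons over layer neurons. Map1b reached 1.06 in upper over deep layers, and Dcx fell to 0.994 in layer over newborn neurons. The count of genes higher in upper than in deep layers was 1 (Tubb2b, up to 1.61) without cells over 20000 UMIs, with equal weight and with thinning, and that of genes higher in interneurons was 1 (Dcx, up to 1.54) with equal weight and with thinning. Stricter gates put Map1b (0.658) among the genes lower in interneurons, which were then 3, and left 3 genes higher with falling Igfbpl1, with Map1b at 1.45. Without cells over 20000 UMIs and with median-of-ratios scaling that count was 5, with Tubb3 at 1.51. The count in newborn neurons was 7 with median-of-ratios scaling, without Map2, and 9 with a UMI of Ube2c, Cdk1 or Birc5 in each dividing cell, where Map1b was at 1.68. Among beta-tubulin shares, Tubb5 was 32.1% of progenitor UMIs under stricter gates, 30.2% with equal weight, 28.8% thinned and 34.6% without excitatory-panel UMIs; in layer neurons it was 29.9% without cells over 20000 UMIs, 30.1% with equal weight and 30.0% thinned. Tubb3 was 6.37%, 5.34%, 5.86%, 6.10%, 6.58% and 6.28% of progenitor UMIs under stricter gates, without cells over 20000 UMIs, with equal weight, thinned, without excitatory-panel UMIs and with a UMI of Ube2c, Cdk1 or Birc5 in each dividing cell; in layer neurons it was 16.2% without cells over 20000 UMIs, with equal weight and thinned. Tubb2a was 9.61%, 8.99%, 8.81% and 8.67% of layer-neuron UMIs under stricter gates, without cells over 20000 UMIs, with equal weight and thinned, and 10.7% and 10.9% of progenitor UMIs in the 2 alternatives on the progenitor gates. With no filter on low levels the share of all genes higher was 6.83% in newborn neurons and 8.65% in layer neurons over progenitors, 5.86% in layer over newborn neurons, 2.39% in upper over deep layers, 4.33% in interneurons and 3.46% with falling Igfbpl1. The cause of these shifts was not tested. The 24 layer VIb cells, the 39 vascular cells or microglia and the 9 striatal-type cells limit the precision there.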
